A study of Homo sapiens with 8 samples.

Results

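The 10 genes described here are SAMD9 and SAMD9L, DDX60 and DDX60L, IFI44 and IFI44L, BST2, EPSTI1, XAF1 and IFI35, a group of interferon-stimulated genes several of which code for proteins that restrict viruses. They were taken by gene symbol, and all 10 were found once in each of the deposited count tables, which list 46427 genes for NCI-H1944 and 61271 genes for NCI-H647. NCI-H1944 and NCI-H647 are established human lung cancer cell lines, both labelled wild type. Cells of each line received 100 nM of BAY-1217389, which inhibits the spindle checkpoint kinase MPS1, or DMSO as the control, over 48 hours. The drug was then washed out, and RNA was taken after a further 24 hours. All groups were grown in the same medium with an antibiotic against mycoplasma. Each line gave 2 libraries with DMSO and 2 with the inhibitor, 8 in all, and the labels do not say that the 2 libraries of a group came from separate cultures, so the spread behind each p-value is that of these libraries and may be technical.

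Type I and type III interferons bind receptors at the cell surface, which activate the kinases JAK1 and TYK2. These phosphorylate STAT proteins, which join IRF9 to form ISGF3, a transcription factor that binds the interferon-stimulated response element in the promoters of many antiviral genes. The 10 genes belong to that output: BST2 holds budding enveloped viruses at the cell surface, SAMD9 and SAMD9L are cytoplasmic proteins that block poxvirus growth, DDX60 and DDX60L are putative RNA helicases, and IFI44 and IFI44L are related cytoplasmic proteins with a GTP-binding motif. XAF1 binds the caspase inhibitor XIAP, IFI35 is a leucine zipper protein that pairs with NMI, and EPSTI1 was first described in breast cancer cells grown with fibroblasts.

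Because the genes moved together, the stretch upstream of each start was read for the letters of the response element. RefSeq (GRCh38.p14) gave a window of 300 bases, 250 before the start and 50 after it, for each of the 10 genes, and 2 windows for IFI44 and for XAF1. The motif searched was GAAANNGAAA on both strands, and matches could overlap. It was found in 7 of the 10 genes, against 3.57% of the 35116 windows of the table, and in 24 of the 36 other interferon-stimulated genes of the pathway list described below that had a window. Here and below, a gene counted if any of its windows matched, while the share of all promoters is per window. The 10 genes were chosen as interferon-stimulated genes, so their share is no result of these data. The matches of the 7 genes are shown with up to 20 bases on each side, from 5′ to 3′ in the direction of the gene, with the matching letters in capitals.
SAMD9, chr7:93118086-93118135, minus strand: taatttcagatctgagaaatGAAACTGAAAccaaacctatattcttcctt
DDX60, chr4:168318776-168318860, minus strand: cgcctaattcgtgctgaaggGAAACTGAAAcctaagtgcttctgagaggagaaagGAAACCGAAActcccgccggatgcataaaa
DDX60L, chr4:168480513-168480592, minus strand: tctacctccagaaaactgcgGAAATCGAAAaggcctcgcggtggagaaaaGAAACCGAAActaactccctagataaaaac
IFI44, chr1:78649751-78649800, plus strand: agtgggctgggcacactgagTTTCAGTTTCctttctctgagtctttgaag
IFI44L, chr1:78620264-78620404, plus strand: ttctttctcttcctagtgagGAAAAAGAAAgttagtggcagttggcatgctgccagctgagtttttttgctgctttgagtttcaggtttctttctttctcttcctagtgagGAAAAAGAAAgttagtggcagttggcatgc
BST2, chr19:17405725-17405780, minus strand: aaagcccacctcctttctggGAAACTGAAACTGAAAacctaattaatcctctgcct
EPSTI1, chr13:42992262-42992311, minus strand: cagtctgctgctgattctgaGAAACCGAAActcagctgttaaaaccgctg

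The letters GAAACTGAAA stood in 4 genes, SAMD9, DDX60, BST2 and, on the opposite strand, IFI44. GAAACCGAAA stood in 3, DDX60, DDX60L and EPSTI1. In BST2 the matches at -130 and -124 shared their middle box, so that 3 GAAA boxes followed each other. In DDX60 the matches began at -88 and -53, and in its paralog DDX60L at -80 and -50. In IFI44L the 2 matches, at -164 and -73, lay in a stretch of 85 bases that occurred there in 2 identical copies, 91 bases apart from start to start.

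Of the other 3 genes, XAF1 and IFI35 held the boxes with 1 base between them (GAAANGAAA, 3.12% of all windows), at -5 and at -16. That spacing and a spacing of 3 bases (GAAANNNGAAA, 2.86%) were searched after the first result had been seen. With any spacing of 1 to 3 bases, 9 of the 10 genes had a match, against 8.68% of all windows, and in SAMD9L these letters did not occur in the window. The 2 sites at the other spacing are shown in the same way.
XAF1, chr17:6756021-6756069, plus strand: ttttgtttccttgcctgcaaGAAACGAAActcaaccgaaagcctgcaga
IFI35, chr17:43006748-43006796, plus strand: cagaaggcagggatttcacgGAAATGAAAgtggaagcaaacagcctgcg
The letters of the gamma-activated site, TTCNNNGAA, another element of interferon-responsive promoters, occurred in 4 of the 10 genes (DDX60, BST2, EPSTI1 and IFI35) and in 7.66% of all windows. A match is a run of letters, and binding was not measured.

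**Figure D1:**
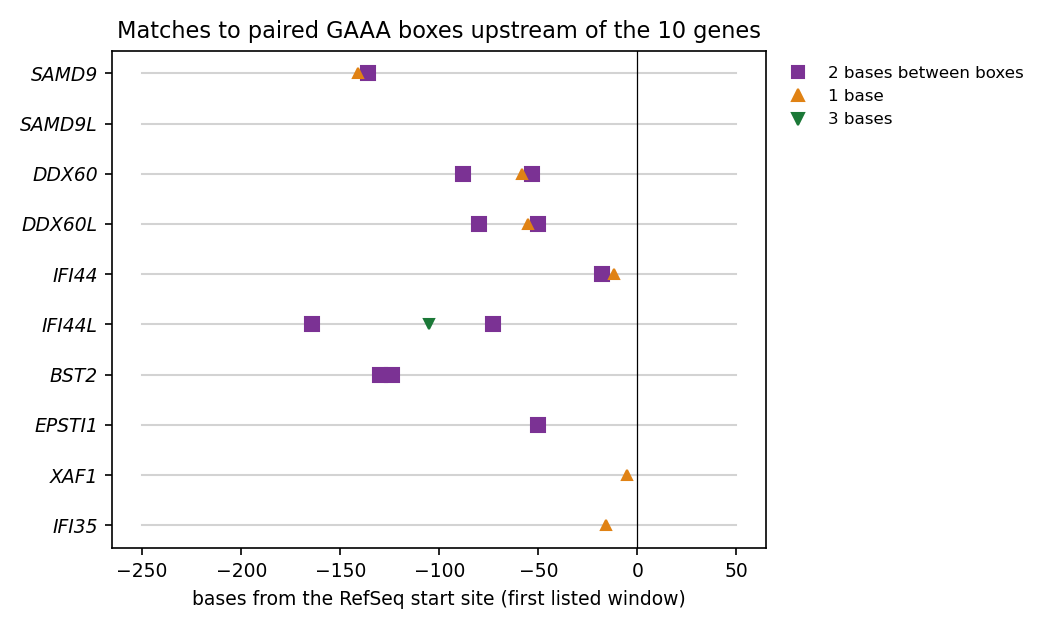
Position of each match to paired GAAA boxes on the x axis, in bases from the RefSeq start (vertical line), with 1 row per gene over the window from 250 bases before to 50 after the start. Squares are matches with 2 bases between the boxes, triangles pointing up 1 base and triangles pointing down 3 bases; all of them begin before the start, the match of XAF1 at -5 runs across it, and the row of SAMD9L is empty.

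Totals per library lay between 38904473 and 43661342 counts in NCI-H1944 and between 13358514 and 19550859 in NCI-H647, so genes of low level are less precise in NCI-H647. The NCI-H1944 libraries were made from poly(A) RNA and the NCI-H647 libraries after removal of ribosomal RNA, with another kit, so that line and kit cannot be told apart. Levels are given in CPM, reads per gene relative to the library's total after TMM scaling, which sets the libraries of a line to a common composition. The epithelial keratin genes KRT7, KRT8 and KRT18 were high in both lines, with KRT8 at 2202 and 239.8 CPM after DMSO. In NCI-H1944 the other markers stood at 0 for KRT19, 2.19 CPM for EPCAM and 33.9 CPM for CDH1. In NCI-H647 they stood at 8.15, 4.92 and 0.314 CPM. The summed level of 6 epithelial markers went from 4125 to 4133 CPM up to 4790 to 4949 in NCI-H1944, where KRT8 and KRT18 rose by 0.29 and 0.19 on the log2 scale. In NCI-H647 the sum went from 874 to 895 CPM down to 634 to 639, and KRT7, KRT8 and KRT18 fell by 0.70, 0.41 and 0.30. There KRT19 rose by 0.35, EPCAM did not pass (-0.04) and CDH1 had too few counts to be tested. Of 3 markers of plasmacytoid dendritic cells, a cell type known for high BST2, 2 were at 0 in every NCI-H1944 library and IL3RA had 5 counts in 1 library treated with the inhibitor, and all 3 were at 0 in NCI-H647. The summed level of 6 leukocyte markers was 3.07 to 4.24 CPM after DMSO and 3.92 to 5.47 after the inhibitor in NCI-H1944, where PTPRC was at 0, and 1.00 to 1.04 and 2.54 to 2.65 CPM in NCI-H647, where CD14 went from 0.64 to 2.23 CPM. The summed level of 5 endothelial and fibroblast markers went from 4.92 to 5.44 CPM up to 7.96 to 9.02 in NCI-H1944 and from 47.6 to 51.8 CPM down to 39.5 to 43.5 in NCI-H647. Most of the NCI-H647 sum after DMSO came from CDH5 at 27.9 CPM and COL1A1 at 16.5 CPM, both above CDH1 there. Any part of these marker changes in the results was not tested. TTK, which codes for MPS1, fell by 0.71 on the log2 scale in NCI-H1944 and by 0.72 in NCI-H647.

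After the inhibitor, all 10 genes were higher in both lines. In NCI-H1944 each passed edgeR's quasi-likelihood test of the counts at a p under 0.05 after Benjamini-Hochberg adjustment over all genes, as did 13.6% of the 16738 genes tested there in the same direction. In NCI-H647 each passed as well, against 27.3% of 15049 genes. The median change of the 10 genes was 2.73 on the log2 scale, 6.63-fold, in NCI-H1944 and 1.69, 3.22-fold, in NCI-H647. The median of all genes tested, which TMM scaling holds near no change, was 0.001 and 0.005. No library treated with the inhibitor overlapped a control library for any of the 10 genes. The share of all genes separated in this way was not counted. Such separation is weak evidence with 2 against 2 libraries, where the smallest two-sided exact permutation p is 0.333. Summed over the 10 genes, the level rose from 343 and 347 CPM to between 1888 and 1911 CPM in NCI-H1944, and from between 523 and 527 to between 1700 and 1717 in NCI-H647. In bulk RNA, more responding cells and more RNA per cell cannot be told apart.

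**Figure D2:**
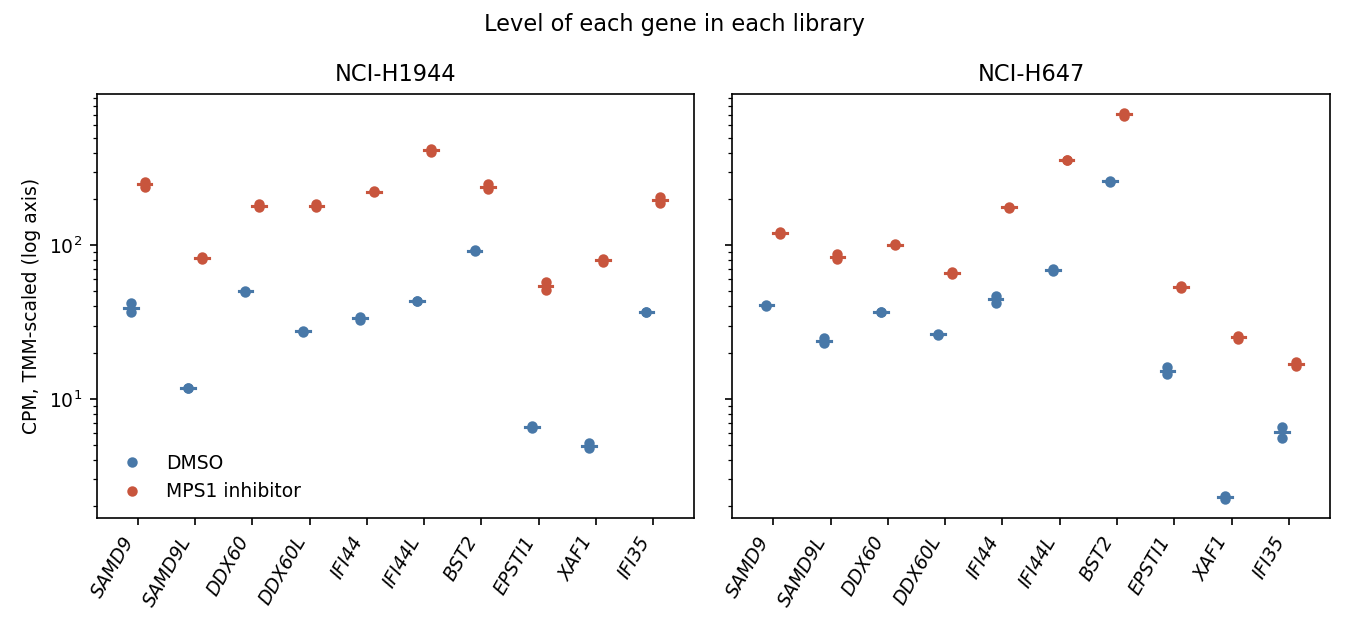
Level of each of the 10 genes in each of the 8 libraries, in CPM with TMM scaling on a log axis, with NCI-H1944 on the left and NCI-H647 on the right. Points are libraries (blue DMSO, red inhibitor) and short bars are group means of 2 libraries; for every gene both red points lie above both blue points.

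BST2, or tetherin, is a membrane protein with an anchor at each end, by which it ties virus particles to the cell. It had the highest level of the 10 per kilobase of exon in each of the 4 groups and the smallest rise of the 10 in NCI-H1944. In NCI-H1944 it stood at 90.9 and 93.0 CPM in the 2 DMSO libraries and at 233 and 248 CPM in the 2 inhibitor libraries. In NCI-H647 the values were 258 and 262 CPM and 725 and 694 CPM. In each line both inhibitor libraries were far above both controls. The DMSO level of NCI-H647 was above the inhibitor level of NCI-H1944, a gap in which line and kit cannot be told apart. The log2 fold change was 1.39 ± 0.040 (SE) in NCI-H1944 (edgeR's quasi-likelihood test, adjusted p = 8.14e-14) and 1.45 ± 0.034 in NCI-H647 (adjusted p = 5.27e-14). BST2 ranked 477 of 16738 genes by size of rise in NCI-H1944, the lowest rank of the 10, and 441 of 15049 in NCI-H647.

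Beside BST2, 55 bases away on the opposite strand, lies BISPR, a long noncoding gene. In NCI-H1944 it had 608 and 608 counts in the controls and 1384 and 1504 with the inhibitor, and in NCI-H647 430 and 358 against 518 and 501, where the control libraries were the deeper ones. BISPR rose by 1.11 ± 0.075 on the log2 scale in NCI-H1944 (edgeR adjusted p = 9.73e-09) and by 0.77 ± 0.064 in NCI-H647 (adjusted p = 8.54e-08), less than BST2 in each line, a difference that was not tested. BISPR shares 13603 bases with MVB12A on the same strand, so the split of reads between them is uncertain. MVB12A did not pass in NCI-H1944 and fell by 0.26 in NCI-H647.

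SAMD9 and its paralog SAMD9L, both of which slow protein synthesis in infected cells, lie 12032 bases apart on the minus strand of chromosome 7 (SAMD9 at 93099513 to 93118023, SAMD9L at 93130056 to 93148385 in GRCh38). In NCI-H1944 SAMD9 stood at 41.8 and 36.8 CPM after DMSO and at 258 and 240.3 CPM after the inhibitor. SAMD9L stood at 11.9 and 11.8 CPM and at 83.7 and 81.0 CPM in the same libraries. Treated and control libraries lay far apart for both genes. SAMD9 rose 6.35-fold (log2 2.67 ± 0.053, edgeR adjusted p = 5.76e-16) and SAMD9L 6.97-fold (log2 2.80 ± 0.058, adjusted p = 8.14e-16).

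In NCI-H647 SAMD9 stood at 40.7 and 40.3 CPM after DMSO and at 118 and 122 CPM after the inhibitor. SAMD9L stood at 23.0 and 24.9 CPM and 80.7 and 87.9 CPM. The control level of SAMD9 was close to that in NCI-H1944, and the treated level was lower in NCI-H647. SAMD9 rose 2.96-fold (log2 1.56 ± 0.052, edgeR adjusted p = 2.22e-12) and SAMD9L 3.53-fold (log2 1.82 ± 0.061, adjusted p = 2.42e-12). The treated SAMD9L libraries of the 2 lines overlapped in CPM, although the controls of NCI-H1944 were lower than those of NCI-H647. Each line was scaled apart, and line and kit cannot be told apart in these levels.

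DDX60 has been reported to act with RIG-I-like receptors, which sense viral RNA, and lies 37851 bases from its paralog DDX60L on the minus strand of chromosome 4 (168216291 to 168318883, and 168356735 to 168537786). In NCI-H1944 DDX60 stood at 49.6 and 50.7 CPM after DMSO and at 184 and 178 CPM after the inhibitor. DDX60L stood at 27.7 and 27.4 CPM and 185 and 177 CPM. Neither gene's treated libraries came near its controls, and the gap was wider for DDX60L. DDX60 rose 3.61-fold (log2 1.85 ± 0.040, edgeR adjusted p = 1.63e-15), the second smallest rise of the 10, and DDX60L 6.57-fold (log2 2.72 ± 0.044, adjusted p = 4.19e-17).

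In NCI-H647 DDX60 stood at 36.8 and 36.7 CPM after DMSO and at 100.2 and 102 CPM after the inhibitor. DDX60L stood at 26.0 and 26.6 CPM and 65.2 and 66.4 CPM, again with no overlap. DDX60 rose 2.74-fold (log2 1.46 ± 0.052, edgeR adjusted p = 4.25e-12) and DDX60L 2.50-fold (log2 1.32 ± 0.051, adjusted p = 1.13e-11), the smallest rise of the 10 in this line. In the NCI-H647 table DDX60L shares 40735 bases with PALLD, a gene of the actin cytoskeleton on the opposite strand with a mean of 6205 counts after DMSO and 4672.5 after the inhibitor. The strand setting of the counting is not given in the sources used here, so the level and fold change of DDX60L in NCI-H647 are uncertain. PALLD did not pass the test in either line, with log2 fold changes of 0.08 in NCI-H1944 and -0.008 in NCI-H647.

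IFI44L and IFI44 lie 3650 bases apart on the plus strand of chromosome 1 (78619902 to 78646145, and 78649796 to 78664078), and IFI44L is known as a gene of interferon signatures in blood and as a negative regulator of the response. In NCI-H1944 IFI44 stood at 34.1 and 32.6 CPM after DMSO and at 224 and 222 CPM after the inhibitor. IFI44L stood at 43.5 and 43.0 CPM and 422 and 403 CPM. The 2 libraries of each group were close to each other for both genes. IFI44 rose 6.69-fold (log2 2.74 ± 0.042, edgeR adjusted p = 1.72e-17) and IFI44L 9.54-fold (log2 3.25 ± 0.039, adjusted p = 7.71e-19).

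In NCI-H647 IFI44 stood at 46.8 and 41.8 CPM after DMSO and at 174 and 177 CPM after the inhibitor. IFI44L stood at 67.9 and 70.1 CPM and 358 and 356 CPM. The first control was higher than the other for IFI44 and lower for IFI44L, and both genes were well separated from their treated libraries. IFI44 rose 3.96-fold (log2 1.99 ± 0.056, edgeR adjusted p = 3.59e-13) and IFI44L 5.18-fold (log2 2.37 ± 0.042, adjusted p = 1.97e-15).

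XAF1, which counters the caspase inhibitor XIAP and is on the plus strand of chromosome 17 (6755447 to 6775647), had the largest rise of the 10 in both lines from the lowest control level per kilobase. It stood at 4.77 and 5.16 CPM after DMSO and 78.1 and 81.7 CPM after the inhibitor in NCI-H1944. In NCI-H647 it stood at 2.34 and 2.24 CPM and 24.6 and 25.6 CPM. The control libraries of NCI-H647 held 45 and 38 counts. The rise was 16.1-fold in NCI-H1944 (log2 4.01 ± 0.071, edgeR adjusted p = 1.06e-16), rank 64 of all genes tested, and 10.9-fold in NCI-H647 (log2 3.45 ± 0.13, adjusted p = 6.99e-12), rank 51.

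EPSTI1, epithelial stromal interaction 1, lies on the minus strand of chromosome 13 (42886388 to 42992271). It stood at 6.42 and 6.62 CPM after DMSO and 57.2 and 51.4 CPM after the inhibitor in NCI-H1944, and at 14.5 and 16.1 CPM and 54.5 and 52.5 CPM in NCI-H647. The controls of NCI-H1944 were below those of NCI-H647, and the treated libraries of the 2 lines overlapped, levels in which line and kit cannot be told apart. The rise was 8.33-fold in NCI-H1944 (log2 3.06 ± 0.080, edgeR adjusted p = 2.32e-14) and 3.51-fold in NCI-H647 (log2 1.81 ± 0.066, adjusted p = 5.95e-12).

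IFI35, on the plus strand of chromosome 17 (43006740 to 43014456), stood at 36.6 and 36.5 CPM after DMSO and 187 and 206 CPM after the inhibitor in NCI-H1944. In NCI-H647 it stood at 6.56 and 5.59 CPM and 16.5 and 17.5 CPM, from 126 and 95 counts to 227 and 237. Its level in NCI-H647 was a small part of that in NCI-H1944 in both treatments, a gap between lines in which line and kit cannot be told apart. The rise was 5.38-fold in NCI-H1944 (log2 2.43 ± 0.050, edgeR adjusted p = 8.46e-16) and 2.78-fold in NCI-H647 (log2 1.47 ± 0.12, adjusted p = 8.32e-08).

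Levels were compared between genes per kilobase of merged exons (GENCODE v29), since the longer gene collects more reads. In NCI-H1944 after DMSO, BST2 stood at 82.2 CPM per kilobase, followed by IFI35 at 18.5, IFI44 at 16.4, DDX60 at 7.43, SAMD9 at 5.73, IFI44L at 4.22, DDX60L at 2.27, SAMD9L at 1.66, EPSTI1 at 1.32 and XAF1 at 0.75. No neighbours in that order overlapped between their 2 libraries. After the inhibitor BST2 still led with 214.7, IFI44 was next with 109 and IFI35 with 99.6, IFI44L had passed SAMD9 and DDX60, and XAF1, at 12.1, stood above SAMD9L and EPSTI1, which overlapped at 11.55 and 11.02. In NCI-H647 the order after DMSO was BST2 at 232.7, IFI44 at 21.7, IFI44L at 6.74, SAMD9 at 5.91, DDX60 at 5.45, SAMD9L at 3.35, EPSTI1 at 3.10, IFI35 at 3.08, DDX60L at 2.16 and XAF1 at 0.35, with overlaps between SAMD9L and EPSTI1 and between EPSTI1 and IFI35. The order after the inhibitor was the same, from BST2 at 634 down to XAF1 at 3.8 CPM per kilobase, and no neighbours overlapped. IFI35 thus held place 2 in NCI-H1944 controls and place 8 in NCI-H647 controls. Merged exons count rarely used long ends as well, so a level per kilobase can be too low for a gene such as IFI44L, whose merged exons span 10240 bases against 2038 for IFI44. The NCI-H1944 counts carry NCBI gene numbers, so their gene models need not match these exon lengths. Overlap between libraries does not cover such errors of length, and close places in the order are uncertain.

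Within each pair of paralogs, the share of the pair's counts held by one gene in each library needs no scaling between libraries. These are shares of reads, not adjusted for gene length. DDX60L held 35.8% (95% Wilson interval 34.2% to 37.6%) and 35.1% (33.4% to 36.8%) of the DDX60 pair in the NCI-H1944 controls, and 50.1% (49.4% to 50.9%) and 49.9% (49.1% to 50.7%) after the inhibitor. Its mean share was 35.5% ± 0.54 (SD, n = 2) and 50.01% ± 0.20, a rise of 14.55 percentage points. In NCI-H647 the share went from 41.4% (38.7% to 44.2%) and 42.0% (39.0% to 44.9%) to 39.4% (37.4% to 41.4%) and 39.5% (37.5% to 41.6%). There the mean fell by 2.21 points, and the intervals of treated and control libraries overlapped. The overlap of DDX60L with PALLD also leaves its share in NCI-H647 uncertain. The intervals cover counting error alone.

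IFI44L held 56.0% and 56.9% of the IFI44 pair in the NCI-H1944 controls and 65.4% and 64.4% after the inhibitor, a rise of 8.44 points from 56.5% ± 0.60 to 64.9% ± 0.67 (SD, n = 2). In NCI-H647 its share was 59.2% and 62.7% in the controls and 67.3% and 66.8% after the inhibitor, a rise of 6.09 points. SAMD9L held 22.1% and 24.3% of the SAMD9 pair in the NCI-H1944 controls and 24.5% and 25.2% after treatment, a rise of 1.65 points that was close to the SD of the controls, 1.55 points. In NCI-H647 the SAMD9L share went from 36.1% and 38.2% to 40.7% and 41.9%, a rise of 4.19 points. In all 6 comparisons the treated libraries did not overlap the controls, and each gave an exact permutation p of 0.333 (two-sided, 0.333 after adjustment over the 6), the smallest that 2 against 2 libraries allow.

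On the log2 scale, the fold change of DDX60L exceeded that of DDX60 by 0.86 ± 0.060 in NCI-H1944 and was below it by 0.13 ± 0.073 in NCI-H647. The excess of IFI44L over IFI44 was 0.51 ± 0.057 and 0.39 ± 0.070, and that of SAMD9L over SAMD9 was 0.13 ± 0.079 and 0.26 ± 0.081. The SAMD9L excess in NCI-H1944 depended on the control library left out, with 0.04 without the first and 0.22 without the second. The balance differed between the lines (NCI-H647 minus NCI-H1944) by -0.996 ± 0.099 for the DDX60 pair, -0.13 ± 0.084 for the IFI44 pair and 0.12 ± 0.12 for the SAMD9 pair. These errors combine those of the single genes as if they were independent, and the tables use different gene models, so the balance of a pair is given as a description.

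**Figure D3:**
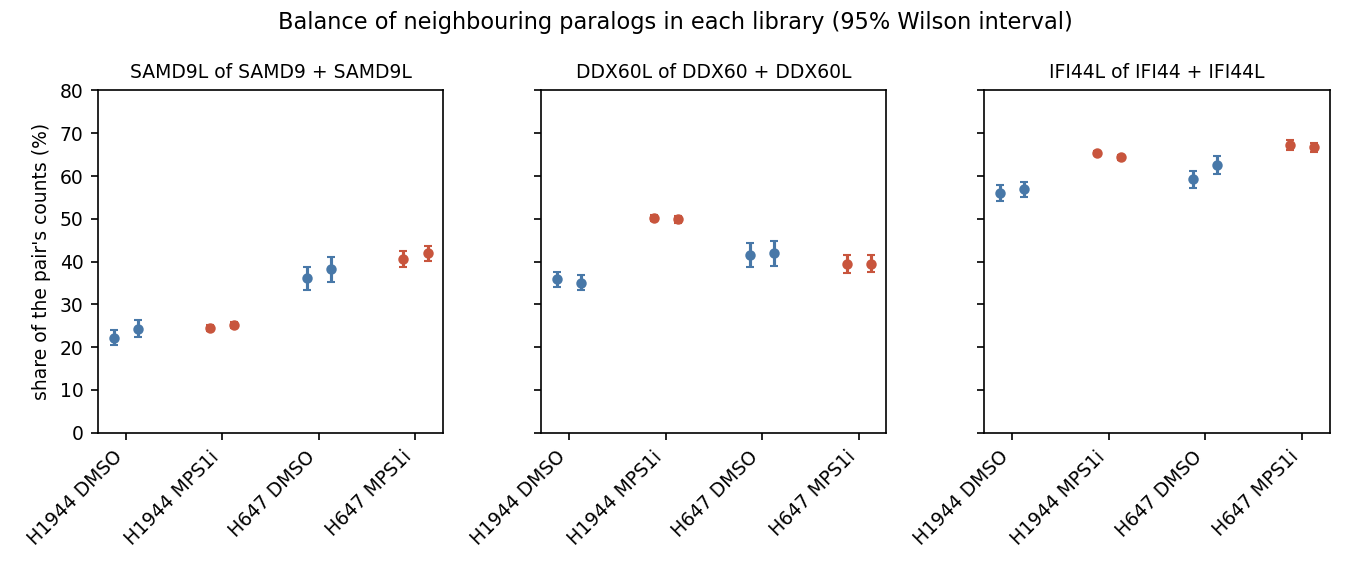
Share of the pair's counts, in percent, held by SAMD9L, DDX60L and IFI44L in each of the 8 libraries (points) with 95% Wilson intervals (bars), by line and treatment. DDX60L goes from about 35% to 50% in NCI-H1944 and stays between 39% and 42% in NCI-H647, and IFI44L is higher after the inhibitor in both lines.

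The joint fit of all 8 libraries asked whether the response of each gene differed between the lines, over 12887 symbols tested in both. For 9 of the 10 genes the rise was larger in NCI-H1944, against 20.3% of all symbols called in that direction by edgeR's quasi-likelihood test. The largest differences (NCI-H647 minus NCI-H1944, log2) were -1.39 ± 0.076 for DDX60L (adjusted p = 1.50e-12), -1.24 ± 0.11 for EPSTI1 (adjusted p = 1.08e-08) and -1.10 ± 0.077 for SAMD9 (adjusted p = 1.09e-10). DDX60L thus rose 2.62 times as much in NCI-H1944 as in NCI-H647, and its paralog DDX60, with a difference of -0.39 ± 0.064 (adjusted p = 3.44e-05), 1.31 times. The overlap of DDX60L with PALLD in NCI-H647 leaves the size of its difference uncertain. The differences were -0.98 ± 0.096 for SAMD9L, -0.95 ± 0.13 for IFI35, -0.88 ± 0.053 for IFI44L and -0.75 ± 0.065 for IFI44, with adjusted p-values of 2.96e-08, 4.59e-06, 9.89e-12 and 3.85e-09.

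XAF1 differed by -0.55 ± 0.17 (adjusted p = 0.0133), a call that was lost when either control library of NCI-H647 was left out, at -0.52 with an adjusted p of 0.122 without the first and -0.59 with 0.0565 without the second. BST2 was the exception, with a difference of 0.07 ± 0.050, a 95% interval of -0.03 to 0.16 and an adjusted p of 0.312 in edgeR's quasi-likelihood test. The order of the 10 genes by size of rise was alike in the lines, with a Spearman correlation of 0.83 over the 10 genes, which share libraries and scaling. XAF1 led, IFI44L came next in both, and DDX60L went from place 6 in NCI-H1944 to place 10 in NCI-H647. Line and kit cannot be told apart in these differences, save that a kit effect equal in treated and control libraries cancels.

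**Figure D4:**
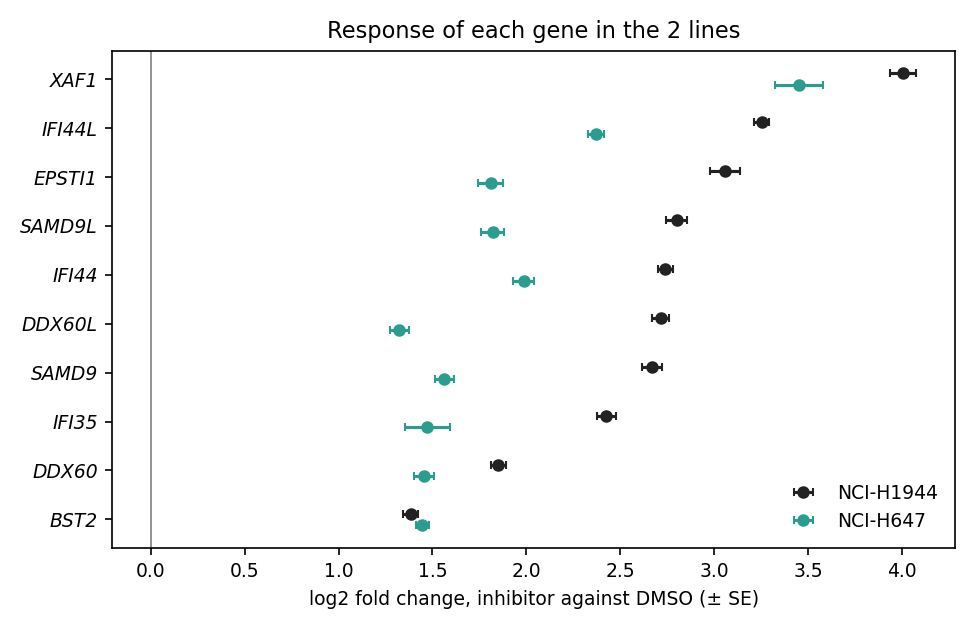
Log2 fold change of each of the 10 genes, inhibitor against DMSO, on the x axis, with bars of 1 standard error (edgeR, n = 2 libraries per group), in NCI-H1944 (black) and NCI-H647 (green). All points lie to the right of 0, the black points lie to the right of the green ones for 9 genes, and for BST2 the points are 1.39 and 1.45.

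Around the 10 genes, the interferon pathway was read from a list of 72 other genes, made up of ISGF3 targets, interferons, receptors and kinases, transcription factors and feedback genes. In NCI-H1944, 63 of the 69 tested rose and 0 fell, and in NCI-H647 59 of 65 rose and 1 fell, the phosphatase gene PTPN6 (log2 fold change -0.41). Of all genes tested, 13.6% and 27.3% rose, in the same order of lines. This list was drawn up after earlier results of these data had been seen. Counts and medians from it are therefore a description and no independent check of the 10 genes. Some of its genes, such as the interferons tested, passed the low-count filter only through the inhibitor libraries, so their rise was nearly fixed in advance. All 45 ISGF3 targets rose in NCI-H1944, with a median of 2.68 on the log2 scale against 2.73 for the 10 genes, and all 44 tested rose in NCI-H647, with a median of 1.70 against 1.69. The 10 genes thus lay within the range of the other targets, 0.73 to 6.96 in NCI-H1944 and 0.24 to 5.17 in NCI-H647. Of those 44 targets, 32 rose more in NCI-H1944, against 20.3% of all symbols, and 7 more in NCI-H647, against 19.3%, which is near that background, with a median difference of -0.67 against -0.91 for the 10 genes.

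The ligands were at or near 0 in the controls. In NCI-H1944 IFNB1 had 0 and 0 counts in the controls and 26 and 22 with the inhibitor, and in NCI-H647 0 and 0 counts, then 1 and 2. IFNL1, a type III interferon, went from 5 and 2 counts to 241 and 309 in NCI-H1944, and had 0 and 0 against 1 and 0 in NCI-H647, where neither gene had enough counts to be tested. Of 7 interferon genes listed, 4 had enough reads to be tested in NCI-H1944 and rose, IFNB1, IFNL1, IFNL2 and IFNL3, and 1 in NCI-H647, IFNE, from 7 and 5 counts to 12 and 11. All of these had control counts under the filter's minimum of 10 and entered the test only through their inhibitor libraries. A rise of the genes tested was thus nearly fixed in advance, and their number is a description. IFNL2 and IFNL3 are near-identical copies, so their split is uncertain, and these names, IFNE and PTPN6 were added after their values were seen.

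Of the 9 receptor and kinase genes 7 rose in each line, against 13.6% of all genes in NCI-H1944 and 27.3% in NCI-H647. Most of these rises were small, with a median of the 9 genes of 0.19 and 0.30 on the log2 scale. IFNAR2 rose by 0.24 ± 0.063 in NCI-H1944 and 0.17 ± 0.062 in NCI-H647, JAK1 by 0.17 ± 0.035 and 0.39 ± 0.037, and TYK2 did not pass in either line (-0.06 and -0.03). IFNAR1 did not pass in NCI-H1944 (0.05) and rose by 0.30 ± 0.049 in NCI-H647, while IL10RB rose by 0.19 ± 0.051 in NCI-H1944 and did not pass in NCI-H647 (-0.007). IFNLR1, the specific chain of the type III receptor, rose by 0.70 ± 0.17 in NCI-H1944 and by 2.46 ± 0.49 in NCI-H647, there from 5 and 2 counts to 15 and 15. In NCI-H647 it passed the low-count filter only through the inhibitor libraries. Of the ISGF3 subunits, STAT2 rose by 1.85 ± 0.043 in NCI-H1944 and 1.45 ± 0.049 in NCI-H647, and IRF9 by 0.97 ± 0.044 and 1.34 ± 0.083. USP18, an ISGF3 target that binds IFNAR2 and dampens signalling, rose by 3.71 ± 0.055 and 3.01 ± 0.13.

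**Figure D5:**
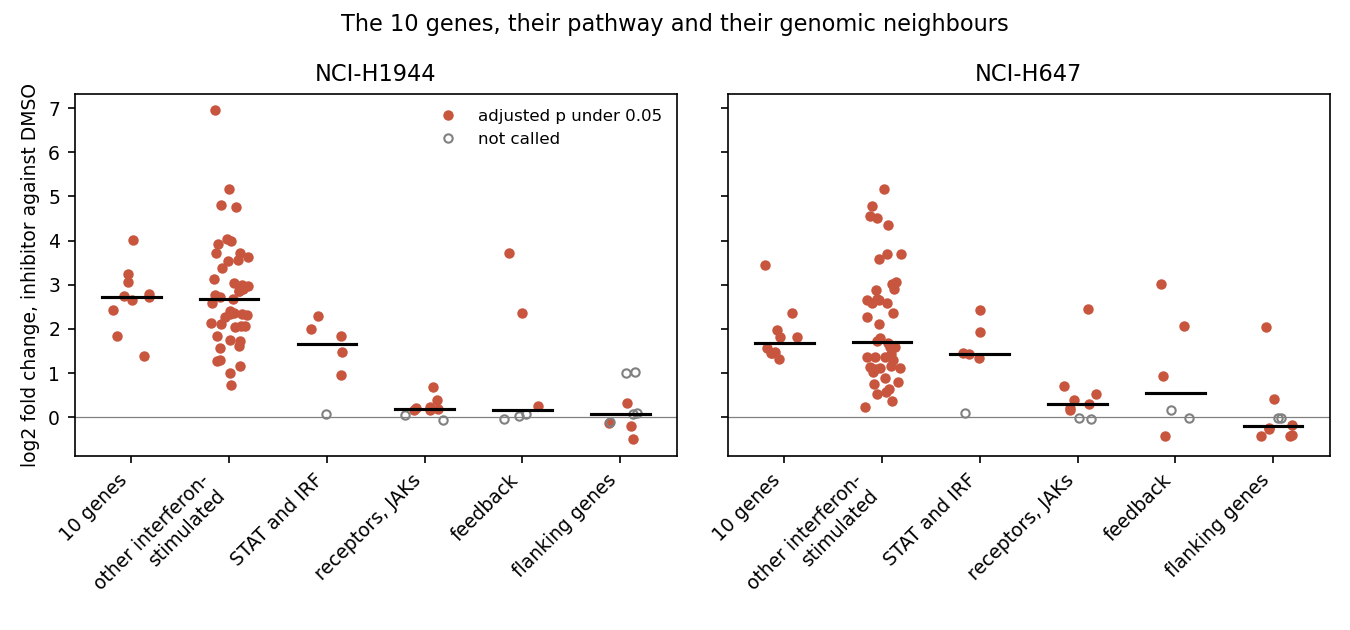
Log2 fold change, inhibitor against DMSO, of the 10 genes, the other ISGF3 targets, the STAT and IRF genes, the receptor and kinase genes, the feedback genes and the protein-coding genes next to the 10 genes, in each line. Filled points passed the test at an adjusted p of 0.05 in either direction, open points did not, and bars are medians; the medians of the 10 genes, 2.73 and 1.69, lie beside those of the other ISGF3 targets and far above those of the flanking genes, 0.08 and -0.20.

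The 10 genes lie in 7 places of the genome, and the nearest protein-coding gene on either side of each place gave 14 flanking genes. In NCI-H1944, 9 of the 14 were tested, 1 rose and 3 fell, with a median of 0.08, where 13.6% of all genes tested rose and 12.4% fell. In NCI-H647, 10 were tested, 2 rose and 6 fell, with a median of -0.20, where 27.3% of all genes rose and 27% fell. CDK6, beside SAMD9, rose by 0.31 in NCI-H1944 and fell by 0.24 in NCI-H647. ADGRL4, beside IFI44, rose by 0.42 in NCI-H647, and CCDC194, beside BST2, by 2.04 from 0.513 to 2.08 CPM. VAT1, 150 bases from IFI35, fell by 0.50 in NCI-H1944 and by 0.17 in NCI-H647, and RPL27 on the other side of IFI35 fell by 0.12 and 0.42. DNAJC15, beside EPSTI1, fell by 0.19 and 0.42, and ANXA10, beside DDX60, fell by 0.40 in NCI-H647.

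Outside the 10, the genes whose pair of log2 fold changes lay nearest to the median pair (2.73 in NCI-H1944 and 1.69 in NCI-H647), by straight distance over the 12887 symbols, were PTGIR, RASD1 and UBA7. UBA7, which codes for the enzyme that activates ISG15, changed by 2.90 and 1.36. PTGIR, a prostacyclin receptor, changed by 2.70 and 1.54 but on few reads, 1 and 4 counts against 11 and 26 in NCI-H1944. RASD1, a Ras-related protein, changed by 2.79 and 2.01, in NCI-H1944 from 0 and 4 counts to 14 and 18.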

How the data were processed

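RNA sequencing of 8 libraries was analysed. The deposited values were whole-number read counts per gene, in 1 table per line, which the authors had not normalised. Per the submitters' processing notes, the tools were STAR, HISAT2, StringTie, featureCounts, cutadapt, Trimmomatic and Trim Galore, on GRCh38 (hg38). Not given in the sources used here are versions, which tool made which table, and whether counting used strand.

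Each line was fitted apart in R 4.3.3 with edgeR 4.0.16, by filterByExpr (minimum count 10, minimum total 15), TMM scaling and the quasi-likelihood F test, two-sided. Benjamini-Hochberg adjustment ran over all genes of a table, with a threshold of 0.05. The SE of a log2 fold change is its size over the square root of F. The difference between lines is the interaction term of a joint fit. Counts were scaled to CPM on TMM-scaled totals. Replicates differed by a chi-square per degree of freedom of 1.98 to 3.93 over genes, so none was a copy. The code of the fits was run on simulated counts with the same spread set for every gene, which real genes need not share. The outcome of that run is not reported here.

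The genes named are the 10 genes, a set of pathway genes given by name, flanking genes called in either line, BISPR, TTK and the 3 genes nearest to the median pair. Some genes of the lists are not reported here by name. The members and lists were chosen with earlier results of these data known. RIGI was matched as DDX58 in both tables. Other scalings, filters, DESeq2 1.42.0, a replicate block and libraries left out were alternatives. Levels per kilobase, the other motif spacings and a crossed block were added after the data were seen. The Length column of the NCI-H647 table is the genomic span, so exon lengths came from GENCODE v29. Promoter windows are RefSeq's.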

Additional observations from a re-analysis of the deposited data

Results flagged for a closer look

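The response of 9 of the 10 genes differed between the lines by the interaction test of edgeR's joint fit, in each case with the larger rise in NCI-H1944. The differences of log2 fold change (NCI-H647 minus NCI-H1944) were -1.10 for SAMD9, -0.98 for SAMD9L, -0.39 for DDX60, -1.39 for DDX60L, -0.75 for IFI44, -0.88 for IFI44L, -1.24 for EPSTI1, -0.55 for XAF1 and -0.95 for IFI35. DDX60 and DDX60L, which are neighbours, stood at opposite ends of this range. In these differences line and library kit cannot be told apart. The uncertainty of DDX60L counts where the gene overlaps PALLD in the NCI-H647 table was not tested.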

How the results depend on the processing

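All 10 genes remained higher in both lines under every alternative run. Without a low-count filter, 1319 genes were called higher and 1006 lower in NCI-H1944, and against a 1.5-fold minimum 385 and 42. In NCI-H647 DESeq2 called 2122 higher and 2573 lower, and the 1.5-fold minimum left 792 and 464. With libraries left out, the excess of SAMD9L over SAMD9 in NCI-H1944 ran from 0.042 without DMSO replicate 1 to 0.22 without DMSO replicate 2, and that of IFI44L over IFI44 in NCI-H647 from 0.28 to 0.49. The line difference of XAF1 lost its call without DMSO replicate 1 (-0.52, adjusted p = 0.122, edgeR) or 2 (-0.59, adjusted p = 0.0565) of NCI-H647, where its controls hold few counts. The causes of these shifts were not tested. That of BST2 stayed between 0.02 and 0.11, with adjusted p from 0.0769 to 0.831.

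With the replicate block, 2490 genes were called higher in NCI-H1944 and 4236 in NCI-H647, among them all 10 genes, and 9 differed between lines. Deviations of same-numbered libraries correlated at 0.06 in NCI-H1944 and -0.12 in NCI-H647. These values show no sign of pairing by number, which 2 libraries a group cannot exclude, so pairing remains unknown. A crossed block in NCI-H647 called 4086 genes higher and 4032 lower. With 2 libraries a group, and fewer counts in NCI-H647, small differences of low genes such as XAF1 are the least certain.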
